A study of Mus musculus with 8 samples.

Results

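The transcripts described here came from 53 genes of the skeletal muscle contractile apparatus and its calcium control, out of 55291 genes counted in the lumbar spinal cord of SOD1G93A mice. They were named as a list of muscle genes that stood higher in Cre control than in Ager-deleted cords, so the values of that contrast chose them and are given below as a description. All 53 were present in the count table. Of these, 44 were among the 19470 genes that passed the filter on low counts, and the other 9 (Tnnc2, Myoz1, Myoz2, Smpx, Myot, Cacna1s, Cacng1, Trdn and Ampd1) did not, because fewer than 4 of the 8 mice held enough reads.

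The study asked how loss of RAGE, the receptor encoded by Ager, from microglia alters the cord in a murine model of amyotrophic lateral sclerosis. Bulk polyA RNA was sequenced from whole lumbar cord of male mice on a C57BL/6J background (strain label C57BL/6) that carry the SOD1G93A transgene, 4 with genotype Ager fl/fl Cx3cr1 Cre/+ (Ager deleted: E1776, E5231, E5248 and E5568) and 4 with genotype Ager +/+ Cx3cr1 Cre/+ (Cre control: E5386, E5642, E6578 and E6732). The Cre is a tamoxifen-inducible CreERT2 knocked into the Cx3cr1 locus, which is active in microglia and other Cx3cr1-expressing cells and leaves every mouse, controls included, with 1 intact Cx3cr1 allele. All mice received tamoxifen at 12 weeks and the labels give an age of 120 days, whereas the study's text describes the sequenced cords as end-stage. Because the tissue was whole cord, fewer cells of a type and less RNA per cell cannot be told apart. Totals ran from 31148047 to 40324897 counts per mouse. Levels are given as CPM, the count scaled to library size with TMM factors, where 3 counts correspond to 0.0744 to 0.0963 CPM. Ager itself was at 0.89, 1.51, 1.02 and 1.34 CPM in the Ager-deleted group and at 1.53, 2.22, 2.18 and 2.41 CPM in the controls, so the groups did not overlap, although E5231 and E5386 were close.

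A sarcomere is built from thick filaments of myosin that pull on thin filaments of actin, anchored at Z-discs and held in register by titin and nebulin. Contraction starts when the ryanodine receptor releases calcium onto the troponin complex, and it ends when the SERCA pump returns calcium to the sarcoplasmic reticulum. Fast and slow fibres use different genes for the same parts: fast fibres use the myosin heavy chains Myh4 (IIB), Myh1 (IIX) and Myh2 (IIA), and slow fibres use Myh7, which the heart also expresses. These proteins belong to muscle fibres, which are not a component of the spinal cord, although several of the genes are also transcribed in neurons or glia, parvalbumin being the best known.

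Promoter windows of 300 bases, from 250 before to 50 after the annotated start, are shown for 4 members that stand for the actin, myosin, energy and slow-isoform genes described below. They are RefSeq sequences of GRCm38.p6, taken at chr8:123894726-123895025 (- strand), chr11:67237562-67237861 (+ strand), chr7:19410844-19411143 (+ strand) and chr14:31208062-31208361 (+ strand). Capitals mark matches to the E-box CANNTG, to TATAAA, and to the consensus sites known as MEF2 and CArG, searched on both strands. A TATAAA match inside a MEF2 site, as in Myh4, is part of the same run of capitals.
Acta1: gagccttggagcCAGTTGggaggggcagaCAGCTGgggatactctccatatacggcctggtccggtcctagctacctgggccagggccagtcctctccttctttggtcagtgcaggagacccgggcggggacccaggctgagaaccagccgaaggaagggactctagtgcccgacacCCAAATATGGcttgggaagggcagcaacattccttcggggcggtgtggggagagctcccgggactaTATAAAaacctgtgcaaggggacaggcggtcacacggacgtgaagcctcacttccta
Myh4: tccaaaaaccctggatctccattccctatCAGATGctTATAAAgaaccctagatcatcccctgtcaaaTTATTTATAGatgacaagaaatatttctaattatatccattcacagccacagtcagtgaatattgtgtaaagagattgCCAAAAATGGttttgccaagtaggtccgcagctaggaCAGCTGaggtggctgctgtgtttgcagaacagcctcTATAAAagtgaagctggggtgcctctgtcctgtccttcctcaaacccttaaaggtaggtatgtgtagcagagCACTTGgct
Ckm: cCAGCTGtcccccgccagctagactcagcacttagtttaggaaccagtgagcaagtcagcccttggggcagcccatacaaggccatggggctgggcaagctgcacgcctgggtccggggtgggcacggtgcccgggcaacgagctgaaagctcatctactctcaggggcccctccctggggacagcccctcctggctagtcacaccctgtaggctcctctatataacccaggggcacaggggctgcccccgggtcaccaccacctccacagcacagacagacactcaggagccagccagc
Tnnc1: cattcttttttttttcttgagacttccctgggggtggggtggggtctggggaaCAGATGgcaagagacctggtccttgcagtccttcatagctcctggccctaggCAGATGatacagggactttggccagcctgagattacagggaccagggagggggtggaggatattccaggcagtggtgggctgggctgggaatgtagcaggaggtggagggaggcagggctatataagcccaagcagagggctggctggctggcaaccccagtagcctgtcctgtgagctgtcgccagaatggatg

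RefSeq windows were found for 37 of the 53 members, 44 windows in all because some genes have several starts whose windows can overlap. The form CAGCTG of the E-box, a hexamer that reads the same on both strands, was in 22 of the 44 member windows and in 16.3% of all 32841 windows. MEF2 matches were in 22.7% of member windows against 3.19% of all windows. CArG matches were in 13.6% against 1.63%. The looser motifs were closer to the background, with CANNTG in 84.1% against 72.3% and TATAAA in 18.2% against 13.6%. Myh4 held a MEF2 and a CArG match and Acta1 a CArG match. Ckm and Tnnc1 held only E-boxes in these 300 bases, 1 in Ckm and 2 in Tnnc1. A match describes letters in the window and no binding was measured.

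Nearly all members followed the same pattern over the 8 mice. The Cre controls E5386 and E5642 were above each of the other 6 mice for 51 of 53 members, the exceptions being Tnni1 and Casq2, while the other controls, E6578 and E6732, lay in or near the range of the Ager-deleted mice. For 42 of the 44 members tested both of these controls were above the other 6 mice, against 3.08% of all genes tested. Since the list was drawn from the control against deleted contrast, nothing is read from that share. E5642 held the highest value for 42 members and E5386 for the other 11. The lower of these controls exceeded the highest of the other 6 mice by a median of 12.0-fold over the 53 members, and by at least 10-fold for 30 of them. Just inside that limit were Myl3 at 10.7-fold and Hrc at 10.9-fold, and just outside it were Myl2 at 9.75-fold and Ryr1 at 9.35-fold.

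**Figure D1:**
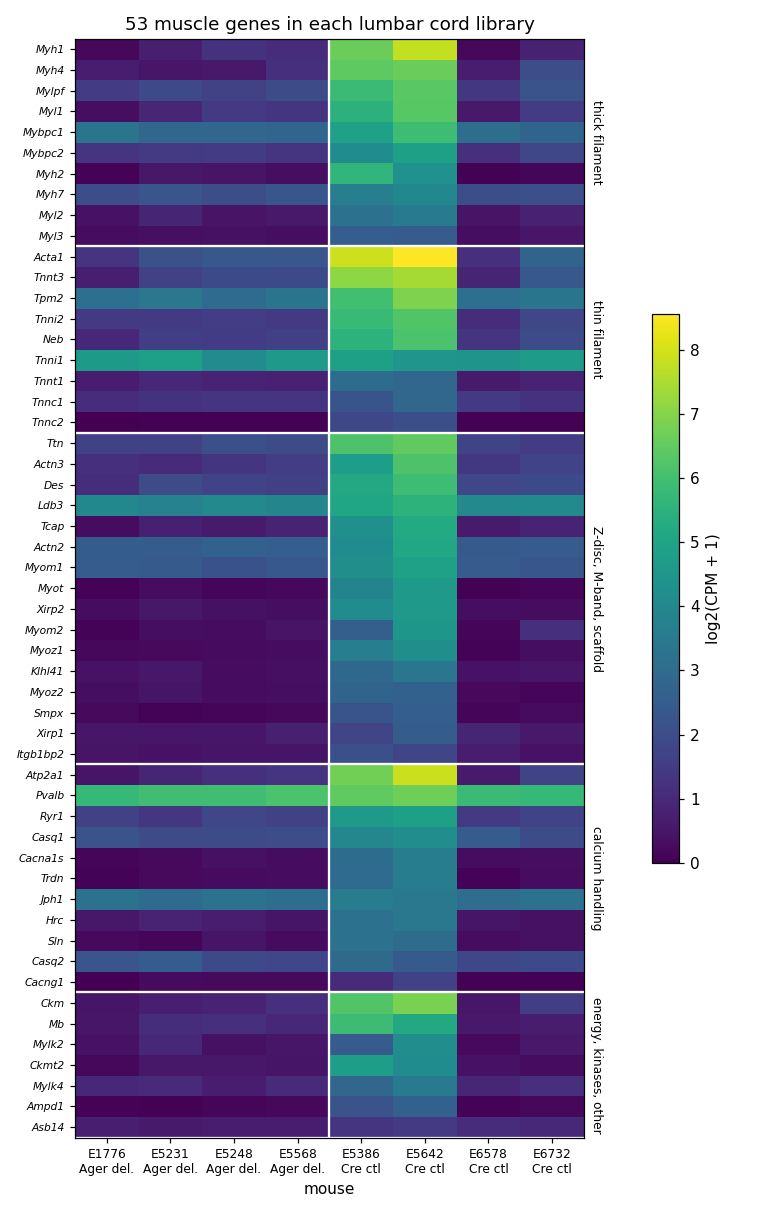
Level of each of the 53 members (rows, grouped by role and ordered within a role by the level in E5642) in each mouse (columns), as log2(CPM + 1) in colour; the 4 Ager-deleted mice are left of the vertical line and the 4 Cre controls right of it. The columns of E5386 and E5642 are brighter than the other 6 for 51 rows, while Tnni1 and Casq2 are not.

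As a share of the whole library, the 53 members took 0.172% of counts in E5386 and 0.245% in E5642. In the other 6 mice they took 0.0159 to 0.0191%. For the 30 members that were at least 10-fold higher, the shares were 0.132% in E5386 and 0.188% in E5642. They were 0.00160, 0.00280, 0.00321 and 0.00320% in E1776, E5231, E5248 and E5568, 0.00184% in E6578 and 0.00413% in E6732. Binomial intervals on these shares cover counting error only and are narrow against the differences, for example 0.00393 to 0.00433% for E6732 (95%, exact). Over the same 30 genes the median level, as a percentage of that in E5642, was 68.4% in E5386 and between 0.929% (E1776) and 2.25% (E5568 and E6732) in the other mice. Counts from these genes as a set were thus present in every cord, at low levels that themselves varied between mice. E1776 was lowest of the 6 for 20 members, and E6732 was highest of the 6 for 20 members and E5231 for 15. At least 1 of the 6 mice was at or under 3 counts for 9 of the 53 members. Which cells these low counts came from was not tested.

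The fast myosin heavy chains were among the members with the widest range. Myh4 was at 0.559, 0.431, 0.508 and 1.21 CPM in the Ager-deleted group (in the order E1776, E5231, E5248, E5568, kept throughout) and at 86.1, 96.9, 0.618 and 3.11 CPM in the controls (in the order E5386, E5642, E6578, E6732). Myh1 was at 0.127, 0.647, 1.38 and 1.14 CPM in the Ager-deleted group and at 96.4, 216, 0.130 and 0.705 CPM in the controls. Myh2 was at 0.0508, 0.458, 0.367 and 0.233 CPM against 49.0, 19.0, 0.0325 and 0.0973 CPM. For each of these 3 genes a pair of controls stood above all other mice and E6578 was within or below the Ager-deleted range, so the genotypes overlapped. Only for Myh4 was E6732 also above every Ager-deleted mouse. The slow chain Myh7 ran from 3.05 to 3.90 CPM in the Ager-deleted group and was at 11.8, 15.1, 3.12 and 3.23 CPM in the controls, a smaller rise over a higher baseline.

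The 3 fast chains lie side by side on chromosome 11 (GRCm38, GENCODE), Myh2 ending 2534 bases before Myh1 and Myh1 ending 13453 bases before Myh4. Their transcripts are similar: 19.7% of the 50-base words of Myh1 also occur in Myh2, 10.6% of those of Myh4 in Myh1, and 22.2% of those of Myh7 in the cardiac gene Myh6. Reads from such stretches could be dropped or assigned to either gene, so the split among these genes is uncertain.

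The other thick filament members are the light chains and the myosin binding proteins. The fast light chain Myl1 was at 0.254, 0.889, 1.75 and 1.42 CPM in the Ager-deleted group and at 44.5, 79.0, 0.488 and 1.85 CPM in the controls. Mylpf, the fast regulatory light chain, was at 1.78, 2.72, 2.26 and 2.89 CPM against 56.3, 81.5, 1.59 and 3.53 CPM. Both followed E5386 and E5642, with E6732 just above the Ager-deleted range and E6578 below it for Mylpf. Their slow counterparts were lower in the same mice: Myl3 was at 4.87 CPM in E5386 and 4.69 in E5642 and no higher than 0.438 elsewhere, and Myl2 was at 8.15 and 10.9 CPM and no higher than 0.836 elsewhere. The myosin binding protein genes differed from this order. Mybpc1, the slow form, was at 28.9 and 59.3 CPM over 5.71 to 8.81 in the other mice, whereas the fast form Mybpc2 was at 17.1 and 28.5 CPM over 1.20 to 2.53.

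On the thin filament, Acta1, the skeletal alpha-actin, had the highest level per length of any member in E5386 and E5642 (157 and 246 CPM per kb). It was at 1.47, 3.32, 4.09 and 4.03 CPM in the Ager-deleted group and at 241, 377, 1.27 and 5.81 CPM in E5386, E5642, E6578 and E6732. The first controls were 65.6-fold and 103-fold above the Ager-deleted median, whereas E6578 was below every Ager-deleted mouse. Neb, which encodes the thin filament ruler nebulin, was at 0.940, 1.99, 1.86 and 2.07 CPM against 45.6, 70.2, 1.5 and 2.87 CPM. Beta-tropomyosin (Tpm2) was already at 7.03 to 9.62 CPM in the Ager-deleted group and was at 62.4, 118, 7.70 and 9.02 CPM in the controls.

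The troponin genes differed by fibre type. Tnni2, the fast inhibitory subunit, was at 1.73, 1.73, 1.92 and 1.71 CPM in the Ager-deleted group and at 54.0, 73.9, 1.17 and 2.53 CPM in the controls. Tnnt3, the fast tropomyosin-binding subunit, was at 0.660, 2.18, 2.79 and 2.77 CPM against 136, 169, 0.845 and 4.13 CPM. These neighbours on chromosome 7, 54425 bases apart, both had E5386 and E5642 high and E6732 next. The slow subunit Tnni1 did not share the pattern: it was at 24.4, 27.7, 16.4 and 23.5 CPM in the Ager-deleted group and at 28.0, 21.2, 20.7 and 25.5 CPM in the controls, overlapping throughout. The slow Tnnt1 was at 7.06 and 6.14 CPM in E5386 and E5642 and at 0.520 to 0.997 elsewhere. The slow troponin C, Tnnc1, was at 3.64 and 6.05 CPM and at 1.17 to 1.76 elsewhere. The fast troponin C gene Tnnc2 had 97 and 103 counts in E5386 and E5642 and 0 or 1 count in each other mouse, all at or under the floor of 3 counts. Exons of Ube2c, on the opposite strand, cover 74.0% of its exon length, the strand setting used for counting is not given in the sources used here, and the Tnnc2 level is therefore uncertain.

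Among Z-disc, M-band and scaffold genes, all 16 had E5386 and E5642 above the other 6 mice. Titin (Ttn), the elastic filament that runs from Z-disc to M-band, was at 2.18, 2.18, 3.25 and 2.97 CPM in the Ager-deleted group and at 70.9, 87.0, 2.34 and 1.85 CPM in the controls. Desmin (Des), the intermediate filament around the Z-disc, was at 1.19, 2.91, 2.29 and 2.09 CPM against 34.8, 58.4, 2.57 and 2.77 CPM. For both genes E6578 and E6732 were inside or below the Ager-deleted range. Myoz1, a fast-fibre calcineurin-binding protein of the Z-disc, was at 11.7 and 18.1 CPM in E5386 and E5642 and at 0.0650 to 0.243 elsewhere. Its slow relative Myoz2 was at 5.72 and 5.28 CPM and at 0.122 to 0.404 elsewhere. Ldb3, a Z-disc adaptor, had a baseline of 12.9 to 15.5 CPM in the Ager-deleted group and was at 32.7, 45.4, 15.3 and 16.2 CPM in the controls. The M-band gene Myom2 was at 5.03, 22.4, 0.0975 and 1.29 CPM in the controls, where E6732 was again above all Ager-deleted mice (0.0508 to 0.362 CPM) and E6578 was not.

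The calcium genes split into those that followed the pair of controls and those with a level of their own in cord. Atp2a1, the fast-fibre SERCA1 pump, was at 0.406, 0.863, 1.27 and 1.52 CPM in the Ager-deleted group and at 106, 233, 0.520 and 2.36 CPM in the controls. Ryr1, the skeletal ryanodine receptor, was at 2.21, 1.54, 2.51 and 2.12 CPM against 23.5, 28.4, 1.76 and 2.33 CPM. Sarcolipin (Sln), a small inhibitor of the SERCA pumps, was at 0.152, 0.108, 0.395 and 0.181 CPM against 8.20, 7.16, 0.228 and 0.316 CPM. The pump, its inhibitor and the release channel were all at their highest in E5386 and E5642. Cacna1s and Cacng1, subunits of the voltage-sensing calcium channel, and triadin (Trdn) also followed these mice.

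Calsequestrin stores calcium in the reticulum, and its genes differed. Casq1, the fast-fibre form, was at 2.85 to 3.56 CPM in the Ager-deleted group and at 14.7, 17.3, 4.65 and 2.87 CPM in the controls. Casq2, the slow and cardiac form, was at 3.76, 4.61, 2.71 and 2.53 CPM against 6.78, 4.35, 2.60 and 2.82 CPM, so E5642 was below E5231. Parvalbumin (Pvalb), the calcium buffer of fast fibres and of many interneurons, was at 52.5, 60.8, 59.6 and 68.6 CPM against 87.6, 100, 55.6 and 52.6 CPM. Jph1, a junctophilin that ties the reticulum to the surface membrane, was at 7.01 to 8.46 CPM in the Ager-deleted group and at 11.1, 9.70, 7.28 and 8.27 CPM in the controls. For Pvalb and Jph1, E5386 and E5642 were the highest mice but by only 1.28-fold and 1.15-fold over the next. The slow and cardiac pump Atp2a2, which is no member, lay between 549 and 743 CPM in every mouse with E5386 and E5642 inside the range of the rest.

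The remaining members serve energy supply, oxygen storage and signalling. Ckm, the cytosolic muscle creatine kinase, was at 0.406, 0.647, 0.762 and 1.21 CPM in the Ager-deleted group and at 74.9, 114, 0.423 and 1.92 CPM in the controls. Myoglobin (Mb), the oxygen store, was at 0.432, 1.16, 1.30 and 0.930 CPM against 57.4, 36.1, 0.488 and 0.584 CPM. Both genes put E5386 and E5642 far above the rest, but Mb, like the mitochondrial creatine kinase Ckmt2 (26.3 and 17.0 CPM), was higher in E5386. Exons of Atp2a1, Mb and Ckm are overlapped on the opposite strand over 21.9%, 31.9% and 15.5% of their length, which carries the same uncertainty as for Tnnc2. The exception in this group was Asb14, a SOCS-box protein gene, at 0.635, 0.539, 0.564 and 0.620 CPM in the Ager-deleted group and at 1.48, 1.73, 1.14 and 0.924 CPM in the controls. It was the only member for which all 4 controls lay above all 4 Ager-deleted mice, a separation seen in 1.91% of all genes tested.

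Levels were compared between genes after division by exon length (CPM per kb). Over the 14 fast and 9 slow isoforms among the members, the fast isoforms supplied 92.0% of the summed CPM per kb in E5386 and 93.1% in E5642. In the other 6 mice the share was 82.3 to 87.6%, and most of that was parvalbumin. Without parvalbumin the fast share was 89.9% in E5386, 91.7% in E5642 and 34.3 to 51.8% in the other mice. After subtraction of the median of the 4 Ager-deleted mice it was 93.6% and 94.2%. These shares describe the mRNA of a few genes and are not fibre counts.

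**Figure D2:**
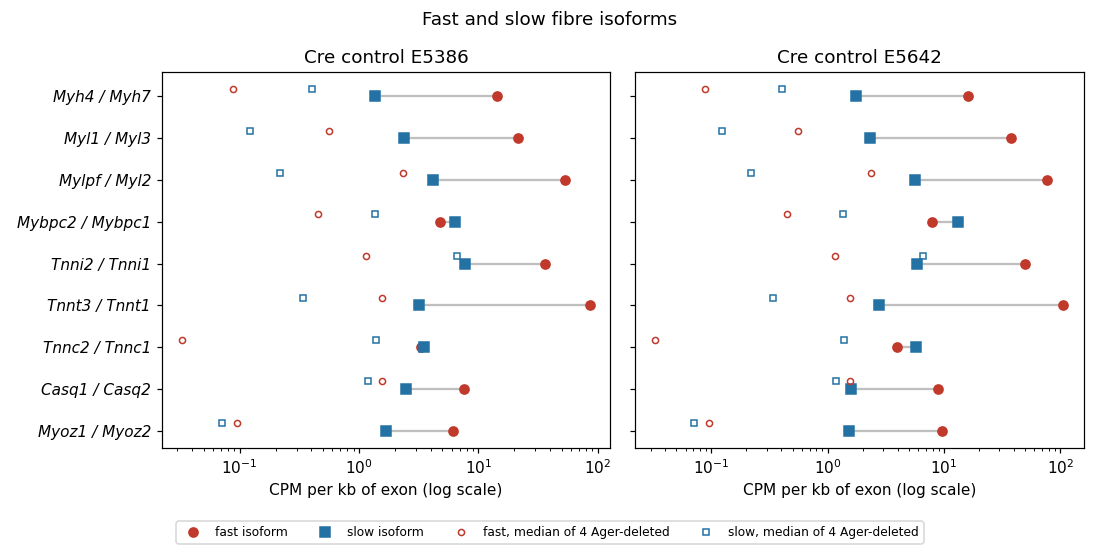
Level in CPM per kb of exon (x, log scale) of the fast (filled circles) and slow (filled squares) member of 9 paralog pairs (y) in the Cre controls E5386 (left) and E5642 (right); open symbols are medians of the 4 Ager-deleted mice. The fast isoform is to the right in 7 pairs in each mouse, and the Mybpc2 / Mybpc1 and Tnnc2 / Tnnc1 pairs are the exceptions.

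Pair by pair, the fast over slow ratio in CPM per kb was highest for troponin T, Tnnt3 over Tnnt1, at 26.8 in E5386 and 38.2 in E5642. It was 12.7 and 13.7 for Mylpf over Myl2, 10.5 and 9.17 for Myh4 over Myh7, and 9.01 and 16.6 for Myl1 over Myl3. The ratio was lower for 3 pairs, at 4.65 and 8.39 for Tnni2 over Tnni1, 3.69 and 6.20 for Myoz1 over Myoz2, and 3.04 and 5.58 for Casq1 over Casq2. It was below 1 for Mybpc2 over Mybpc1, at 0.742 and 0.601, and for Tnnc2 over Tnnc1, at 0.949 and 0.684. The Tnnc2 level carries the strand uncertainty given above. None of these ratios was corrected for the level in the other 6 cords. In CPM per kb that level was 1.12 to 1.69 for Tnnc1, against 3.49 in E5386 and 5.81 in E5642. For Tnni1 it was 4.55 to 7.69, against 7.76 and 5.88. For the pumps, Atp2a1 over Atp2a2 gave 0.299 and 0.695, with Atp2a2 at a similar level in all cords.

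The controls E5386 and E5642 did not carry the same mix of myosins. Of the summed CPM per kb of the 4 adult heavy chains, Myh4 made up 37.9% in E5386 and 29.5% in E5642. Myh1 made up 40.2% in E5386 and 62.4% in E5642, and Myh2 made up 18.2% and 4.87%. Myh7 was similar at 3.62% and 3.22%. In the other 6 mice, where the totals were low, Myh7 made up 36.9 to 74.7%. Even there the fast chains differed between mice: in E6732 Myh4 led with 128 counts against 29 of Myh1, whereas in E5248 Myh1 led with 49 counts against 18 of Myh4.

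Gene by gene, CPM was higher in E5642 than in E5386 for 39 of the 53 members, lower for 5, and not separable for 9, judged by whether the exact 95% interval for counting error excluded 1. This compares single animals, so it says nothing of genotype. The same share over all genes was not computed, so 39 of 53 is not read as a trait of the members. Cord markers could also exclude 1, as did Snap25 (1.07 to 1.10) and Mbp (0.924 to 0.932), whereas Slc6a5 did not (0.974 to 1.03). The ratio of E5642 to E5386 was highest for Myom2, at 4.45 (3.78 to 5.26), and for the myosin light chain kinase Mylk2, at 3.88 (3.25 to 4.65). Actn3, the alpha-actinin of fast glycolytic fibres, was at 2.68 (2.49 to 2.89), Myh1 at 2.25 (2.16 to 2.34) and Atp2a1 at 2.20 (2.12 to 2.29). The ratio was close to 1 for Myh4, at 1.13 (1.07 to 1.18). At the low end were Myh2 at 0.388 (0.353 to 0.425), Mb at 0.629 (0.585 to 0.676), Casq2 at 0.642 (0.518 to 0.792), Ckmt2 at 0.647 (0.582 to 0.720) and Tnni1 at 0.758 (0.687 to 0.836). For Casq2 and Tnni1, E5642 was below the Ager-deleted E5231 (4.35 against 4.61 CPM and 21.2 against 27.7 CPM). The ratios of these 2 genes therefore do not compare a rise above the other mice. The median ratio was 1.41 over the 14 fast isoforms, 0.964 over the 9 slow isoforms and 1.53 over the other 30 members. After subtraction of the Ager-deleted median it was 1.46, 0.962 and 1.56. The slow medians include Casq2 and Tnni1, whose ratios after subtraction were 0.315 and -0.682. These were the 2 slow isoforms with an interval below 1, beside 4 above 1 and 3 that included 1. On the fast list 12 were above 1, 1 was below and 1 included 1. The slow medians are therefore not read as a difference from the fast list. Mybpc1 was the highest of the slow list at 2.06 (1.91 to 2.22).

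**Figure D3:**
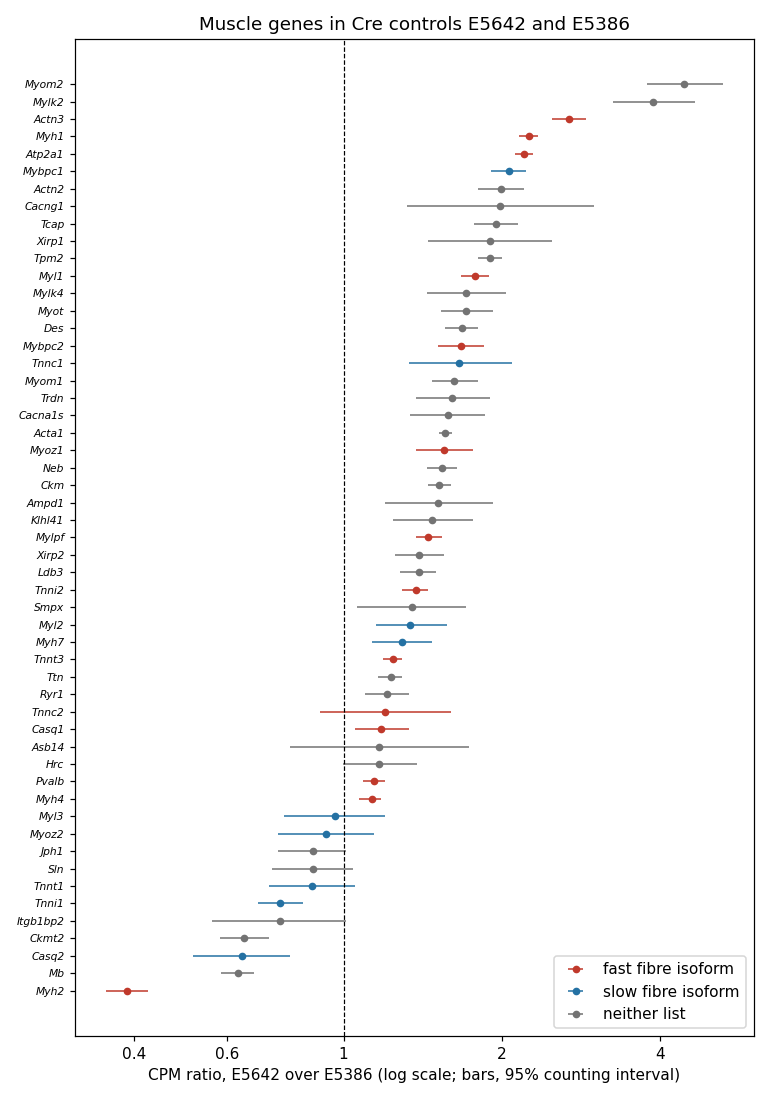
Ratio of CPM in Cre control E5642 to that in Cre control E5386 (x, log scale) for each member (y), with exact 95% intervals for counting error as bars and colours for fast isoforms, slow isoforms and members on neither list. Most members lie right of the dashed line at 1, from 4.45 for Myom2 at the top, and Myh2 is the lowest at 0.388.

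Of the 13 muscle energy genes outside the member list, 5 were higher in E5642, 5 were higher in E5386 and 3 had intervals that included 1. The glycolytic genes Eno3 (2.28, interval 2.11 to 2.46) and Pgam2 (2.13, 1.85 to 2.47) were higher in E5642, as was the mitochondrial carrier Ucp3 (1.83, 1.59 to 2.10), whereas phosphofructokinase (Pfkm) was at 1.00 (0.982 to 1.02) and the phosphorylase kinase subunit Phkg1 at 0.813 (0.762 to 0.868). The cytochrome oxidase subunits Cox8b (0.245, 0.201 to 0.296) and Cox7a1 (0.542, 0.471 to 0.624) and the fatty acid carrier Fabp3 (0.774, 0.684 to 0.876) were higher in E5386. For Ucp3, Pfkm, Phkg1 and Cox7a1, E5386 and E5642 were not both above the other 6 mice. Ucp3 was at 9.24 CPM in E5386 and up to 9.78 in the other 6, and Cox7a1 at 9.14 CPM in E5642 against 11.9 in E5231. Pfkm and Phkg1 lay within the range of the rest in both mice. The ratios of these genes therefore do not compare a rise above the other mice. Cox8b and Cox7a1 are also expressed in brown adipose tissue. E5386 was the mouse with the highest adipocyte markers, and the part of these in the ratios was not tested.

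The comparison of genotypes follows, and since the members were chosen on it the values are a description. With edgeR's exact test over all 19470 genes, the log2 fold change of Cre control over Ager deleted was positive for all 44 members tested, with a median of 3.37, against -0.0069 over all genes. It exceeded 2 for 32 members and 4 for 17, and was below 1 for 5 (Tnni1, Jph1, Casq2, Pvalb and Ldb3). At an adjusted p under 0.05, 4 members were called higher in controls, where 0.0616% of all genes tested were called in that direction. No member was called lower, where 0.0103% of all genes were. The 4 were Myh4 (log2 fold change 6.10, quasi-likelihood SE 1.40, adjusted p 0.0105 in edgeR's exact test), Ckm (5.97, SE 1.47, adjusted p 0.0281), Atp2a1 (6.39, SE 1.59, adjusted p 0.0294) and Asb14 (1.15, SE 0.23, adjusted p 0.0438). At an unadjusted p under 0.05 in the exact test, 40 members were higher, against 3.06% of all genes. Beside the 4 called, 17 members had an adjusted p between 0.05 and 0.1. With no filter on low counts, which brings in the other 9 members, 3 of 53 were called, against 0.0261% of genes, and Asb14 was no longer among them (adjusted p 0.119 in edgeR's exact test). Among members not called, Myh1 had the highest log2 fold change, 6.57 (SE 1.76, adjusted p 0.0848 in the edgeR exact test), and Acta1 was next to the threshold at 5.60 (SE 1.44, adjusted p 0.0503).

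The call depended on the test. The edgeR quasi-likelihood test called none of the 44 (adjusted p 0.705 at the lowest), although 40 had an unadjusted p under 0.05, against 4.03% of all genes higher in controls. Voom with limma called none, with 2 at an unadjusted p under 0.05. DESeq2 called 4, against 0.118% of all genes. These included Acta1 (adjusted p 0.0359 in DESeq2) in place of Asb14 (0.0688), beside Myh4, Ckm and Atp2a1. The exact test run on separately estimated common and tagwise dispersions called 34, against 0.385%. The same 4 members called in the main exact test were among these 34.

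The difference rested on E5386 and E5642. Without both mice, the median log2 fold change of the 44 members was 0.14 and 29 of 44 were positive. edgeR's exact test then called no member, against 0.318% of genes called higher, and 3 members were higher at an unadjusted p under 0.05 (background 3.05%). The quasi-likelihood test also called none, with 2 at an unadjusted p under 0.05. Those 3 were Myh4 (log2 fold change 1.47, p 0.0135), Myom2 (1.67, p 0.0384) and Asb14 (0.80, p 0.00789), with p unadjusted from the edgeR exact test. Myh2 was lower in controls (-1.96, p 0.0266 in the same test). It had 1 and 4 counts in E6578 and E6732 against 2, 17, 13 and 9 in the Ager-deleted mice, near the floor of 3 counts. For 34 of the 44 members the log2 fold change was within 0.5 of 0. Without E5386 alone 6 of 44 members were called, against 0.355% of genes, and without E5642 alone 1 of 44, against 0.0355%. Without E6578 or E6732, the controls with low muscle levels, 40 and 41 of 46 members tested were called, against 0.486% and 0.435% of genes. Leaving out E1776, E5231 or E5568 left 0 calls, against 0.0304%, 0.0102% and 0.0304% of genes, and 42, 41 and 42 members at an unadjusted p under 0.05. Leaving out E5248 left 1 call, against 0.244%. Asb14 was not called without E5386 or without E5642.

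**Figure D4:**
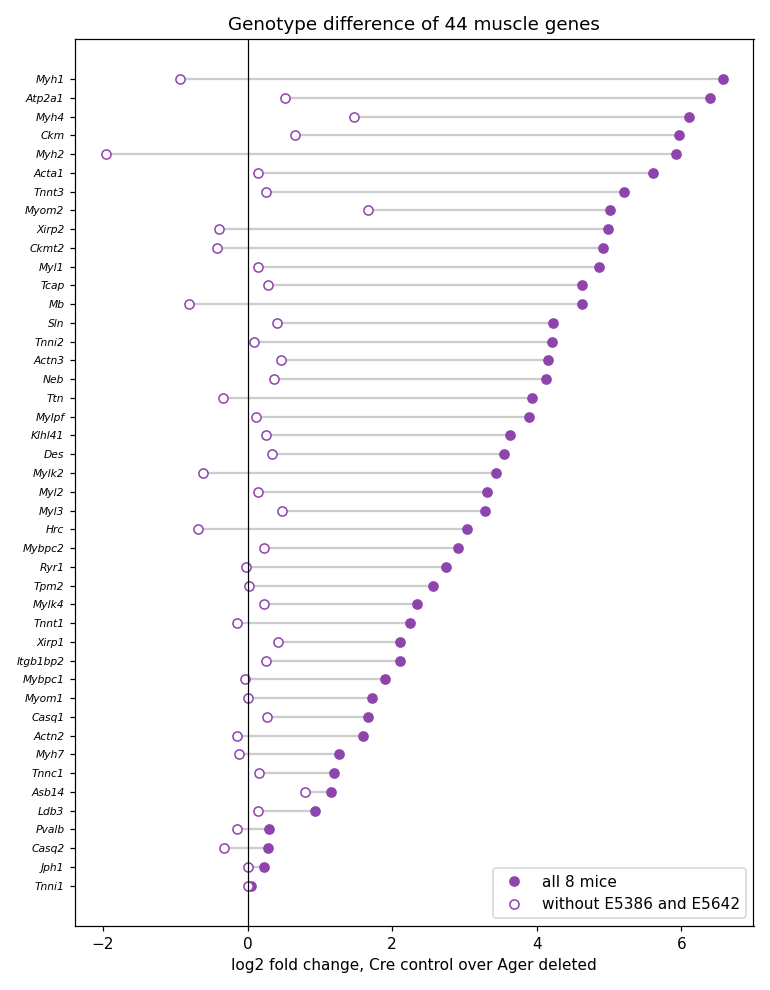
Log2 fold change of Cre control over Ager deleted (x) for the 44 members tested (y), with all 8 mice (filled) and without E5386 and E5642 (open). The filled points reach 6.57 for Myh1, while the open points lie within 0.5 of 0 for 34 members and reach from -1.96 (Myh2) to 1.67 (Myom2).

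Other muscle genes, listed beside the members, moved with the same mice. Of 37 further sarcomere and coupling genes, 27 had E5386 and E5642 above the other 6 mice, against 3.76% of all genes with at least 1 count. Of the 28 tested, 0 were called by edgeR's exact test and the median log2 fold change was 0.70. Of 13 muscle energy genes 7 had both mice highest, against the same 3.76%, with 0 of 12 called. Among all tested genes outside the list, chosen after their values were seen, wide gaps between these mice and the rest were seen for the skeletal sodium channel Scn4a (3.47 and 5.43 CPM over 0.152 to 0.325) and for the small heat shock protein Hspb7 (13.5 and 25.6 CPM over 0.847 to 1.34). Members made up 10 of the 10 tested genes with the widest gap, 19 of 20 and 32 of 50. Since they were chosen on a contrast that rests on the same mice, nothing is read from that ranking.

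Myogenic and endplate genes were higher in the same mice at far lower levels. The list of 11 summed to 10 and 15.7 CPM in E5386 and E5642 and to 4.06 to 6.53 CPM elsewhere. For 7 of 11 both mice were highest, against 3.76% of all genes with at least 1 count. The myogenic factor Myf6 was at 2.11 and 3.95 CPM and at most 0.141 elsewhere, and the acetylcholine receptor subunit Chrnd had 13 and 24 counts and 0 in the other 6. Of the 3 genes of this list that were tested, Musk, the endplate kinase, was called, where 0.0616% of all genes tested were called higher. Its log2 fold change was 1.36 (adjusted p 0.0209 in edgeR's exact test), on 10 to 30 counts per mouse. For Musk the controls, at 0.821, 0.895, 0.618 and 0.559 CPM, were all above the Ager-deleted range of 0.254 to 0.310 CPM. Such a separation was seen in 1.91% of all genes tested.

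The summed cardiac and smooth muscle markers of E5386 and E5642 were not above those of all other mice. The 10 cardiac markers summed to 170 and 146 CPM in E5386 and E5642 and to 128 to 212 CPM in the rest, a sum made up mostly of Ryr2 (114 to 195 CPM over the other 6 mice). Both mice were highest for 3 of the 10 (Actc1, Myl4 and Nppa), against 3.76% of all genes with at least 1 count. Cardiac actin Actc1 was at 0.574 and 0.525 CPM against 0.0486 to 0.130 in the rest, and the atrial light chain Myl7 was at 0 in both and at no more than 0.0650 CPM in the rest. The 8 smooth muscle markers summed to 30.7 and 48.9 CPM against 37.5 to 58.0 CPM, and none had both mice highest. The 10 spinal cord markers, which include Mbp, Gfap and Chat, summed to 21900 to 28000 CPM, with E5386 at 26100 and E5642 at 24900.

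E5386 and E5642 differed in other tissues. The 9 adipocyte markers summed to 216 CPM in E5386, to 7.32 in E5642, to 22.8 in E6732 and to 1.14 to 5.85 in the other mice. In E6732 most of the sum was Pck1 at 19.1 CPM, and the next marker was Fabp4 at 2.29 CPM. Adipoq and Ucp1 were at 0.219 and 0.195 CPM there. The brown fat uncoupling protein Ucp1 was at 42.2 CPM in E5386 and 0.216 in E5642, and the fatty acid carrier Fabp4 at 109 and 6.39 CPM. The 6 markers of myelinating Schwann cells in peripheral nerve summed to 8.83 CPM in E5386 and to 780 in E5642, against 215 to 778 in the other 6. Their part in the muscle values was not tested. Blood, meningeal fibroblast and tendon, bone and cartilage lists had 0 genes with both mice highest. In E5642 a single transcript, CT010467.1, took 3.79% of counts, against 1.6% in E5568 and at most 0.184% elsewhere.

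**Figure D5:**
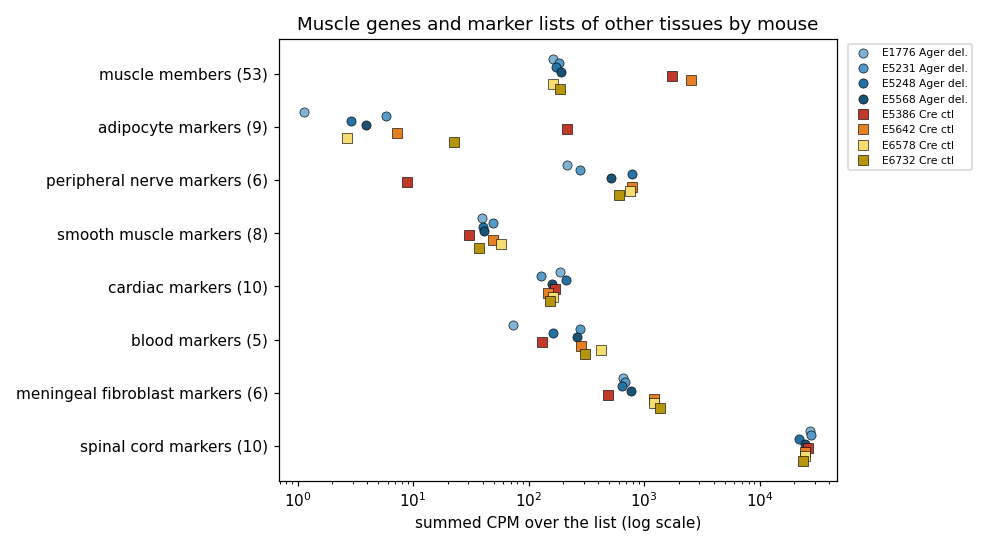
Summed CPM (x, log scale) of the 53 members and of 7 marker lists (y, number of genes in parentheses) in each mouse; circles are Ager-deleted mice and squares Cre controls. E5386 and E5642 stand apart for the muscle members, while E5386 alone is highest for adipocyte markers at 216 and lowest for peripheral nerve markers at 8.83.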

How the data were processed

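RNA of 8 lumbar cords (4 mice per genotype, separate animals) was sequenced as stranded polyA libraries. Per the labels and the study's methods, the authors trimmed reads (Trimmomatic 0.36), aligned them to mm10 (STAR 2.7.3a) and deposited raw counts per gene (featureCounts, Subread 1.6.3). The strand setting is not given in the sources used here. They also deposited log2 TMM-normalised CPM from edgeR, which were recomputed from the counts as a check and not otherwise used.

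Genes were filtered with filterByExpr (minimum count 10), scaled by TMM and tested with edgeR 4.0.16 (exact test, R 4.3.3, Benjamini-Hochberg adjusted p under 0.05), Cre control over Ager deleted. SEs come from the quasi-likelihood fit. DESeq2 1.42.0 and limma-voom (limma 3.58.1) were alternatives, with other scalings, filters and left-out mice. The fits were tested on simulated data in which 200 genes were shifted alike in all 4 controls. That setting does not test a pattern carried by E5386 and E5642 alone. Exon lengths and positions are from GENCODE on GRCm38, an older release than that used for counting. Intervals on ratios and shares are exact 95% binomial intervals. Depth is 31148047 to 40324897 counts per mouse.

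The members, the lists and the mice left out were chosen with earlier results of these data known. Named genes were core members, each fast and slow pair, called members, the 5 members highest in Ager-deleted mice and the widest gaps outside the list. Some genes that this rule covers are not reported here. Those described for the E5642 to E5386 ratio were picked after their values were seen.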

Additional observations from a re-analysis of the deposited data

Results flagged for a closer look

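Each group of 4 mice was searched for a mouse far from the other 3, and 8 of 86 groups had one. A rate of about 1 in 20 such groups would hold for independent normal values, which these levels need not be. No excess over chance is therefore read from the count. Among the Ager-deleted mice, Myh4 was at 1.21 CPM in E5568 against 0.431 to 0.559 in the others, and Mybpc1 was at 8.81 CPM in E1776 against 6.00 to 6.23. Tnni2 was at 1.92 CPM in E5248 against 1.71 to 1.73, and Myoz2 was at 0.404 CPM in E5231 against 0.226 to 0.254. Tnnc2 was at 0 in E1776 against 1 count in each of the others, which is under the floor of 3 counts. The smooth muscle markers summed to 49.1 CPM in E5231 against 39.6 to 40.7, and the myogenic and endplate markers to 4.06 CPM in E5568 against 4.83 to 4.95. Among the Cre controls, the adipocyte markers summed to 216 CPM in E5386 against 2.67 to 22.8 CPM. Not all members were searched. Those searched gave no flag in the controls, where E5386 and E5642 were both high for most of them.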

How the results depend on the processing

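The members' direction was positive for all 44 under each scaling and test, and the cause of the changes below was not tested. Members called, 4 in the main exact test, were 8 with upper quartile scaling, 8 with library size only, 34 with common and tagwise dispersions, 0 with the quasi-likelihood test and 0 with limma-voom. Genes called in either direction, 14 in the main test, were 1 with quasi-likelihood, 78 with common and tagwise dispersions, 25 with DESeq2 (38 genes without an adjusted p), 1 with limma-voom and 8 with a minimum of 1 CPM in 4 mice. That filter left 27 members with both mice highest, since fewer genes were tested. The study's own exact test gave 78 genes, the same number as common and tagwise dispersions gave here. Whether these are the same genes was not compared. Leaving out 1 mouse gave 0 to 41 members and 3 to 98 genes called.

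Without both E5386 and E5642, 67 genes and 0 members were called and the members' median was 0.14. Tests added after seeing the data gave 88 genes (common and tagwise) and 1 gene (quasi-likelihood), 0 members, and the same median. Among the genes named by rule, signs then reversed for Ttn (-0.34), Ryr1 (-0.02), Mb (-0.81), Pvalb (-0.15), Myh7 (-0.12), Mybpc1 (-0.04), Tnnt1 (-0.14), Casq2 (-0.32) and Atp2a2 (0.01). With 1 mouse left out, Tnni1 ran from -0.08 (without E5248) to 0.15 and was -0.03 without E5386, Casq2 from -0.06 (without E5386) to 0.46, and Atp2a2 from -0.13 to 0.01 (without E5248).

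The fast share in E5386 and E5642 was 88.3 and 90.1% without division by length, 90.4 and 91.9% per longest transcript, 95.6 and 96.1% without isoforms of the ventricle, 89.9 and 91.7% without parvalbumin, and 93.6 and 94.2% above the Ager-deleted median. No paired analysis was possible because the replicate numbers follow accession order and the labels pair no mice.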
